A study of Caenorhabditis elegans with 4 samples.

Results

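The aminoacyl tRNA synthetase genes of Caenorhabditis elegans were examined in gonad mRNA-seq. Members were all genes of the deposited comparison table whose symbol is a letter followed by ars, a hyphen and a number, which gave 32 of 20389 genes. They cover 20 amino acids. By annotation, 20 encode cytosolic enzymes and 12 encode mitochondrial enzymes. Of the 32 members, 15 belong to class I and 17 to class II, the 2 structural classes into which these enzymes fall. The libraries compared met-2(n4256);him-8(tm611) with him-8(tm611) adult hermaphrodites, with 2 libraries per genotype from separate sets of dissected gonads and 400 gonad arms per RNA preparation. Both genotypes thus carried the him-8(tm611) deletion, and there was no wild-type group. MET-2 is a histone methyltransferase needed for dimethylation of lysine 9 of histone H3 in the germ line, and HIM-8 is a zinc finger protein needed for pairing of the X chromosomes in meiosis. The met-2;him-8 animals were recently derived from a balanced strain, because homozygous lines lose their germ line over generations. The comparison asks how the gonad transcriptome differs when this histone mark is largely lost. The paper reports a low signal on blots of met-2 mutants, which it proposes to be residual mark or cross-reaction of the antibody.

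An aminoacyl tRNA synthetase joins an amino acid to the tRNAs that carry its anticodons, and the loaded tRNA is then used by the ribosome. Cytosolic translation and translation inside mitochondria use separate tRNAs. For many amino acids, 2 nuclear genes therefore encode the enzymes, and for others a single gene makes forms for both places. The adult hermaphrodite gonad makes oocytes, which store large amounts of maternal mRNA and protein. In this worm the number in the symbol does not always give the compartment. The cytosolic alanyl and valyl enzymes are aars-2 and vars-2, and aars-1 and vars-1 are the mitochondrial ones. The gene vars-2 is also called glp-4, mutants of which the paper describes as germ cell-less. The cytosolic phenylalanyl enzyme is made of subunits from fars-1 and fars-3, with fars-2 as the mitochondrial enzyme. The gene listed as yars-1 is K08F11.4, a protein of 447 residues that current annotation names yars-2 and that was placed with the mitochondrial members. Its cytosolic counterpart, Y105E8A.19, a protein of 722 residues, is listed under its sequence name and so was not a member. In the cytosolic group, 6 genes (cars-1, gars-1, hars-1, kars-1, qars-1 and tars-1) were taken as the single gene of their amino acid. Whether each of them serves both compartments was not tested. The genes mars-1 and wars-1 have no partner among the members either but were not counted as single genes.

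Library totals ranged from 14255714 reads in him-8 replicate 2 to 49848077 in him-8 replicate 1, a 3.50-fold range. Levels are given as reads per 1000000 reads of a library, after scaling of the library totals (CPM). The transcript of met-2 was present at 25.8 and 52.8 CPM in met-2;him-8 and at 127 and 212 CPM in him-8, lower in both libraries labelled as met-2 mutants. The germ line markers pgl-1, glh-1, gld-1, oma-1, rme-2 and puf-5 summed to 9992 and 12650 CPM in met-2;him-8 and to 9665 and 9367 CPM in him-8, higher in the former without overlap. The single genes went both ways: 4 had a log2 fold change above 0 and 2 below (glh-1 at -0.31 and oma-1 at -0.26). Without overlap, 3 were higher (gld-1, rme-2 and puf-5) and 1 was lower (glh-1). The 4 markers of gonadal sheath and spermatheca summed to 9.95 and 6.45 CPM against 8.06 and 9.06 CPM. Markers of sperm and of other tissues were also present. The 6 sperm markers summed to 15.7 and 14.8 CPM against 22.5 and 12.6 CPM. Of these 5 had a log2 fold change below 0 (median of the list -0.62) and 2 were lower without overlap, while fer-1 stood at 8.85 CPM in met-2;him-8 replicate 2 and at most 0.926 CPM elsewhere. Summed CPM of the 5 intestinal markers was 587 and 546 in met-2;him-8 and 363 and 352 in him-8, mostly from the yolk protein genes vit-2 and vit-6. Only these 2 were higher without overlap. By log2 fold change 4 of the list were above 0 and 1 was below (elt-2 at -0.47). The 3 body wall muscle markers, all of them higher in both met-2;him-8 libraries, summed to 60.6 and 178 CPM against 46.4 and 42.2 CPM. Of the hypodermal markers, dpy-7 and rol-6 were at or near 0 (at most 0.231 CPM in any library), and the summed level was 209 and 192 CPM against 218 and 89.3 CPM. The germ line, intestinal and muscle sums thus differed between genotypes without overlap, whereas the sheath, sperm and hypodermal sums overlapped. The part of these differences in the results was not tested. Fewer cells of a type and less RNA per cell cannot be told apart in such bulk libraries.

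Transcripts of 30 of the 32 members were detected in all 4 libraries, with between 647 and 55181 reads each. All 30 passed the expression filter, so that depth did not limit their detection. They cover 19 amino acids, 17 of them through a cytosolic gene. The remaining members, aars-2 (F28H1.3, chromosome I, 3983208 to 3986387, + strand) and qars-1 (Y41E3.4, chromosome IV, 15008598 to 15013144, - strand), encode the cytosolic alanyl and the glutaminyl enzyme and are listed at 0 reads in every library. The count table lists 3244 genes at 0 in all libraries, among them eef-1A.1, an elongation factor gene that every cell uses. A listed 0 is therefore not a measured absence, and no level or limit is given for aars-2 and qars-1.

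Cytosolic members were present at higher levels than mitochondrial members. On the scale of CPM per kilobase of exon (RPKM), all 18 detected cytosolic genes had a mean above that of all 12 mitochondrial genes. The lowest cytosolic mean was 98.6 RPKM for cars-1 and the highest mitochondrial mean was 91.9 RPKM for sars-2. This order is that of the counts. In the RPKM that the authors give per genotype, fars-2 (272 in met-2;him-8 and 357 in him-8) lay above most detected cytosolic members. Those above it were fars-1, kars-1, mars-1 and nars-1 in both genotypes, and dars-1, rars-1 and sars-1 in him-8 only. By the same values pars-2 (214 and 172) lay above cars-1 and ears-1 in both genotypes. In met-2;him-8 it also lay above others, such as gars-1 (205). Among the 16834 genes with reads and a known exon length, cytosolic members lay between percentiles 89.9 and 98.9 with a median of 94.7. The mitochondrial members lay between percentiles 70.5 and 89.0 with a median of 82.1. The groups met at their edges within libraries: 3 cytosolic genes (cars-1, ears-1 and wars-1) lay below the highest mitochondrial gene in met-2;him-8 replicate 1, and 2 (hars-1 and wars-1) did so in replicate 2. In him-8 it was 1 gene (ears-1) in replicate 1 and 0 genes in replicate 2.

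**Figure D1:**
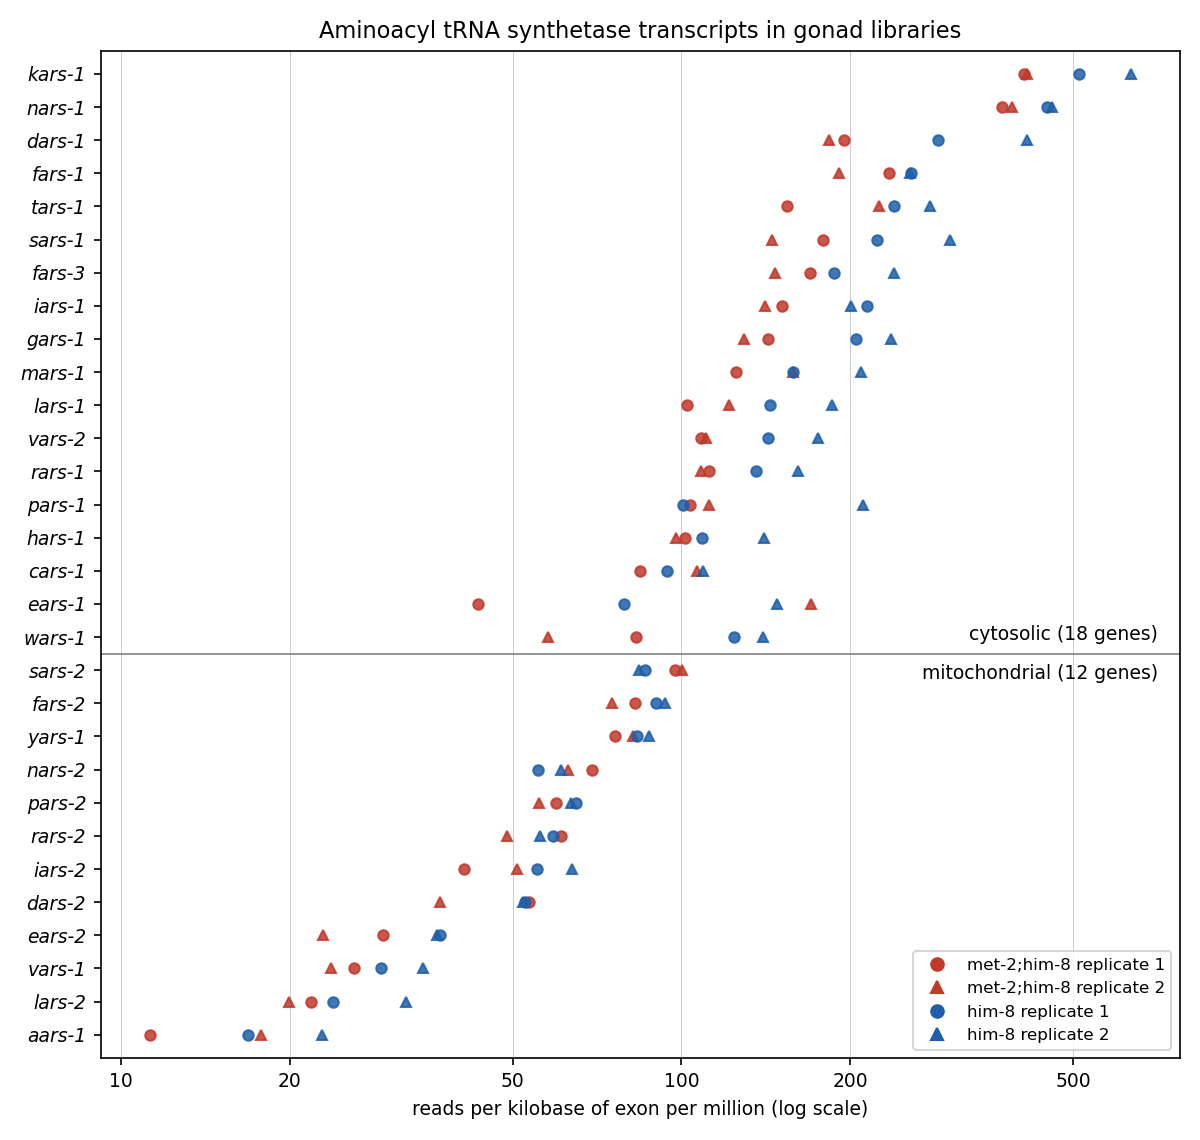
Level of each detected synthetase gene in each of the 4 libraries, in RPKM on a log scale, with cytosolic genes above the line and mitochondrial genes below it. Red marks met-2;him-8 and blue marks him-8, with circles for replicate 1 and triangles for replicate 2, and levels run from 11.2 RPKM for aars-1 to 634 RPKM for kars-1.

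The order of the members was much the same in every library. The Spearman correlation of RPKM over the 30 members lay between 0.891 and 0.978 for the 6 pairs of libraries, which share gene lengths and base composition and are described here without a test. Lysyl and asparaginyl enzymes led in every library. The transcript of kars-1 (T02G5.9, chromosome II, 7070349 to 7072347, - strand), the single lysyl gene, was present at 408 and 413 RPKM in met-2;him-8 and at 513 and 634 RPKM in him-8. That of nars-1 (F22D6.3, chromosome I, 7088189 to 7090056, - strand), for the cytosolic asparaginyl enzyme, was present at 373 and 389 RPKM and at 450 and 458 RPKM. The aspartyl gene dars-1 (B0464.1, chromosome III, 9489237 to 9491125, - strand) followed them by mean, at 195 and 183 RPKM against 287 and 413 RPKM. In all 3 genes the higher met-2;him-8 level was under the lower him-8 level.

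The cytosolic members with the lowest levels were ears-1, wars-1 and cars-1. The glutamyl gene ears-1 (ZC434.5, chromosome I, 10336404 to 10340802, + strand) was present at 43.3 and 171 RPKM in met-2;him-8 and at 78.9 and 148 RPKM in him-8. Its replicates differed 3.94-fold in met-2;him-8 and 1.88-fold in him-8, with replicate 2 the higher in each genotype. No other member differed as much between met-2;him-8 replicates, the next being aars-1 at 1.58-fold. The cysteinyl gene cars-1 (Y23H5A.7, chromosome I, 2623362 to 2628579, - strand) was present at 84.3 and 107 RPKM against 94.2 and 109 RPKM, so that its genotypes overlapped.

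Among mitochondrial members the seryl, phenylalanyl and tyrosyl genes had the highest levels. The transcript of sars-2 (W03B1.4, chromosome IV, 4357634 to 4359868, + strand) was present at 97.2 and 100.1 RPKM in met-2;him-8 and at 86.2 and 83.8 RPKM in him-8. That of fars-2 (Y60A3A.13, chromosome V, 19898132 to 19907402, - strand) was at 82.7 and 75.3 RPKM against 90.1 and 93.4 RPKM. For yars-1 (K08F11.4, chromosome IV, 4710900 to 4712488, - strand) the levels were 76.0 and 82.0 RPKM against 83.3 and 87.4 RPKM. These 3 levels are close. The highest was sars-2 in both met-2;him-8 libraries and fars-2 in both him-8 libraries. At the other end stood the valyl gene vars-1 (ZC513.4, chromosome V, 8031704 to 8034883, + strand), at 26.1 and 23.7 RPKM against 29.1 and 34.5 RPKM. The leucyl gene lars-2 (ZK524.3, chromosome I, 7457299 to 7460749, - strand) was at 21.8 and 19.9 RPKM against 23.9 and 32.2 RPKM. The alanyl gene aars-1 (W02B12.6, chromosome II, 11460266 to 11463957, - strand) had the lowest mean of all detected members, at 11.2 and 17.8 RPKM against 16.8 and 22.8 RPKM.

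The transcripts of cytosolic synthetases took a smaller share of the reads in met-2;him-8 than in him-8 gonads. Together the 18 detected cytosolic genes held 0.662% and 0.721% of reads after scaling in met-2;him-8, against 0.857% and 1.05% in him-8. The 12 mitochondrial genes held 0.115% and 0.112% against 0.124% and 0.133%. The genotypes did not overlap in either sum. With 2 libraries per genotype the exact two-sided permutation test cannot give a p below 0.333, so no such sum can pass a threshold of 0.05.

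Gene by gene, the fold changes from edgeR's quasi-likelihood test (met-2;him-8 over him-8) leaned the same way. All 18 cytosolic members had a log2 fold change below 0, with a median of -0.46 (interquartile range -0.55 to -0.34, full range -0.91 to -0.08). Of the 12 mitochondrial members 10 were below 0, with a median of -0.21 (range -0.50 to 0.21). Over all 10875 genes tested the median was 0.02 (interquartile range -0.32 to 0.39) and 48.5% were below 0. The median standard error was 0.22 for the members and 0.48 for all genes. Most members are also more abundant than most genes, and the part of level in the errors was not tested. No member passed the adjusted threshold: 0 of 30 were called at an adjusted p below 0.05, and the background was 0% of all genes tested. The smallest adjusted p of a member was 0.886 (edgeR with Benjamini-Hochberg adjustment over all genes tested). In the same fit the mutated gene met-2, at a log2 fold change of -2.11, also had an adjusted p of 0.886 (edgeR). With the replicate number as a block it was 5.39e-07 (edgeR). The lack of calls among the members is therefore no measure of a lack of change.

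At an unadjusted p below 0.05, 6 members were lower in met-2;him-8, all of them cytosolic, and 0 were higher. Over all genes tested, 3.01% were lower and 1.83% higher by that rule (327 and 199 of 10875). The DESeq2 fit gave 2 members by that rule (dars-1 and wars-1) and called 0 members, and it called 26 genes over the whole table. Without him-8 replicate 2, the shallowest library, the median of the cytosolic members was -0.31, and without him-8 replicate 1 it was -0.60. The log2 fold changes of the 6 members lay between -0.82 (wars-1) and -0.38 (vars-2) without him-8 replicate 2. Such fits leave a single him-8 library, so only the sizes of the changes are given for them.

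**Figure D2:**
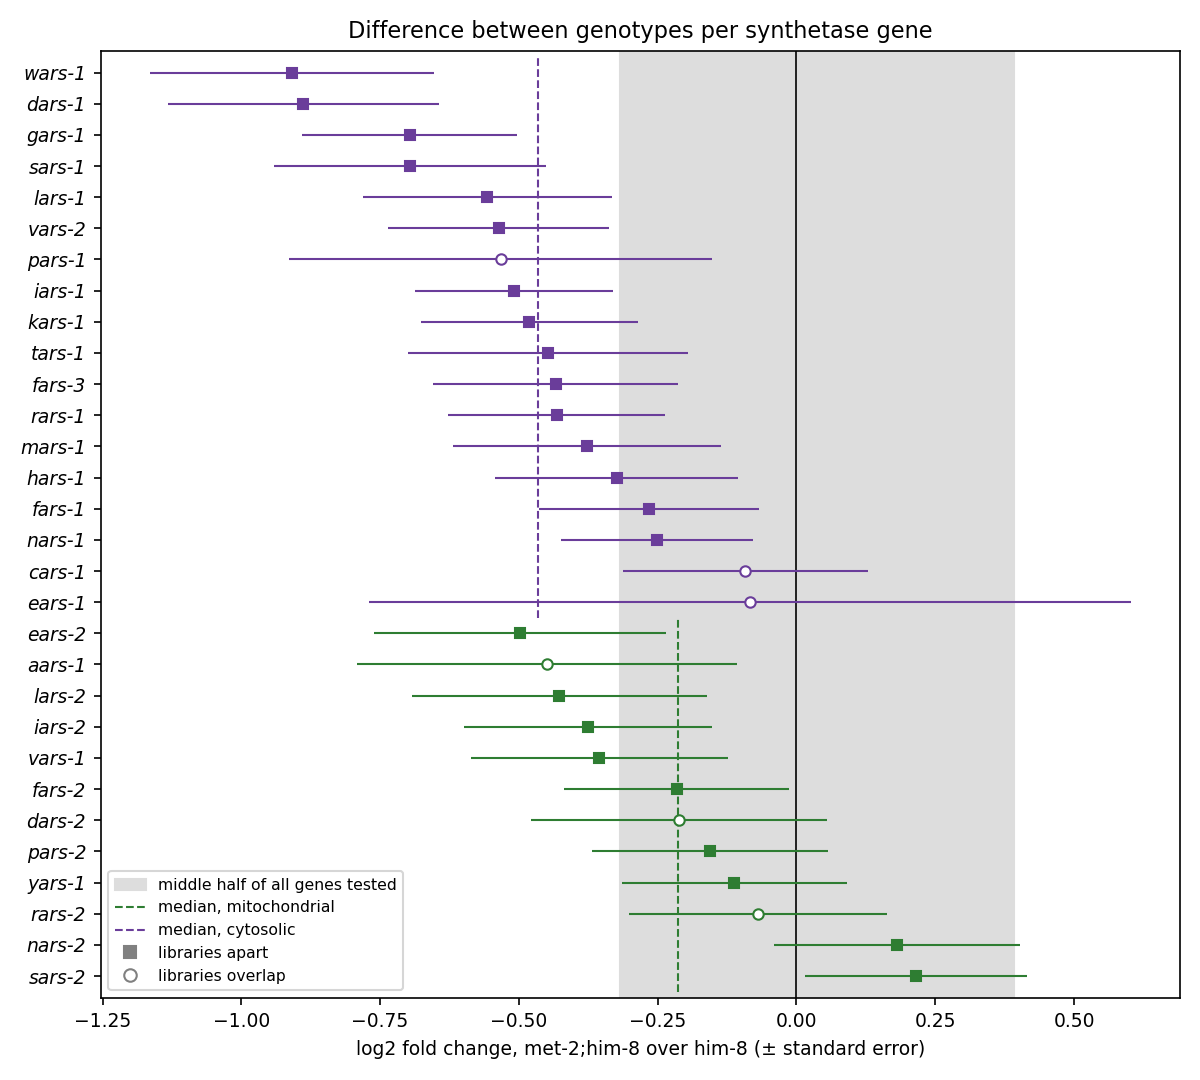
Log2 fold change (met-2;him-8 over him-8) of each detected synthetase gene with its standard error, n = 2 libraries per genotype. Filled squares mark genes whose 2 genotypes do not overlap, open circles those that overlap, the grey band is the interquartile range of all genes tested (-0.32 to 0.39), and dashed lines are the medians of the cytosolic (-0.46) and mitochondrial (-0.21) genes.

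The separation of single libraries gave a like count. In 15 of the 18 cytosolic members each met-2;him-8 library was below each him-8 library, and in 0 members each was above. Of all genes tested, 19.8% were lower in this way and 16.9% higher. The 3 cytosolic members that overlapped were cars-1, ears-1 and pars-1. Among mitochondrial members 7 of 12 were lower, 2 were higher (nars-2 and sars-2) and 3 overlapped (aars-1, dars-2 and rars-2). Compared library by library, between 15 and 18 of the 18 cytosolic members were lower in the met-2;him-8 library of the 4 possible combinations, with medians of the log2 ratio between -0.71 and -0.32. The 2 combinations with him-8 replicate 2 had medians of -0.71 and -0.59, and those with him-8 replicate 1 had medians of -0.33 and -0.32. For the mitochondrial members between 8 and 10 of 12 were lower, with medians between -0.32 and -0.13. The median over all genes tested lay between -0.05 and 0.00 in these combinations.

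Cytosolic members are also among the more abundant genes, so they were set beside genes of like level. Of the 1048 genes tested whose mean lay between those of the lowest and the highest cytosolic member (204 to 1020 CPM), the members included, 53.1% had a log2 fold change below 0 and the median was -0.03. In 28.0% of these genes each met-2;him-8 library was below each him-8 library. A log2 fold change as low as the cytosolic median or lower was seen in 12.1% of them (127 genes). In the range of the mitochondrial members (49.6 to 189 CPM, 2882 genes) 50.1% were below 0, the median was 0.00, and 21.9% lay at or below the mitochondrial median.

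**Figure D3:**
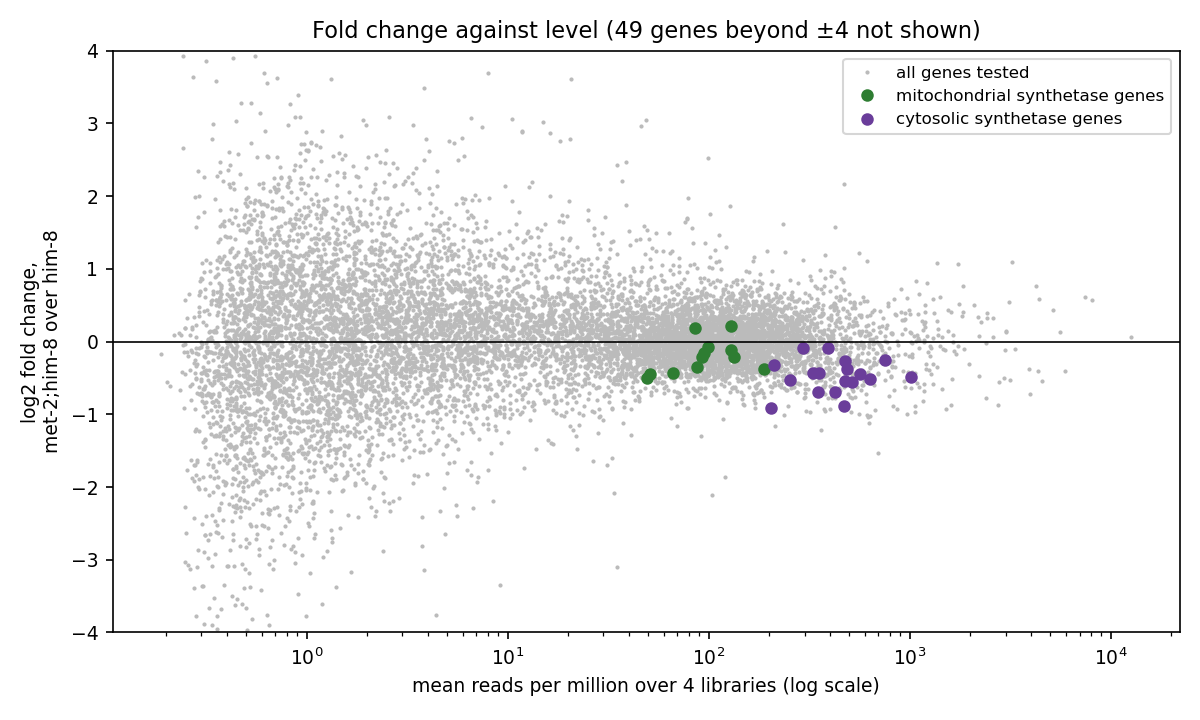
Log2 fold change (met-2;him-8 over him-8) of all 10875 genes tested (grey) against their mean level in CPM on a log scale, with cytosolic synthetase genes in purple and mitochondrial ones in green. The 18 cytosolic genes lie at 204 to 1020 CPM and all below 0, whereas 10 of the 12 mitochondrial genes lie below 0, and 49 genes beyond 4 in either direction are outside the axis.

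The members with the lowest fold changes were wars-1, dars-1, gars-1 and sars-1. The transcript of wars-1 (Y80D3A.1, chromosome V, 18853422 to 18859175, - strand), which encodes the tryptophanyl enzyme, was present at 167 and 116 CPM in met-2;him-8 and at 251 and 282 CPM in him-8. Its log2 fold change was -0.91 ± 0.26 (SE). For dars-1 the levels were 340 and 320 CPM against 501 and 722 CPM, with a log2 fold change of -0.89 ± 0.24 (SE). These are the largest differences among the members, and met-2;him-8 levels were 53.3% and 54.03% of those in him-8 by the fit. The glycyl gene gars-1 (T10F2.1, chromosome III, 5159837 to 5163585, - strand) encodes the enzyme whose human counterpart is mutated in a form of Charcot-Marie-Tooth neuropathy. It was present at 340 and 308 CPM against 487 and 563 CPM, with a log2 fold change of -0.70 ± 0.19 (SE). The cytosolic seryl gene sars-1 (C47E12.1, chromosome IV, 10003733 to 10005403, + strand) was at 294 and 239 CPM against 367 and 497 CPM, with a log2 fold change of -0.70 ± 0.24 (SE).

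The other members at an unadjusted p below 0.05 were the valyl and isoleucyl genes. The transcript of vars-2 (Y87G2A.5, chromosome I, 13548461 to 13559333, - strand) was present at 387 and 395 CPM against 509 and 625 CPM, with a log2 fold change of -0.54 ± 0.20 (SE). That of iars-1 (R11A8.6, chromosome IV, 10368594 to 10372458, + strand) was at 545 and 507 CPM against 773 and 725 CPM, with a log2 fold change of -0.51 ± 0.18 (SE). In all 6 genes the genotypes did not overlap, and their adjusted p (edgeR) was 0.886 each. Abundant kars-1 and nars-1 had log2 fold changes of -0.48 ± 0.20 and -0.25 ± 0.17 (SE). Among the other cytosolic genes, lars-1 (-0.56), tars-1 (-0.45), fars-3 (-0.43), rars-1 (-0.43), mars-1 (-0.38), hars-1 (-0.32) and fars-1 (-0.27) had the log2 fold changes given, each with genotypes that did not overlap.

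The prolyl gene pars-1 (T20H4.3, chromosome III, 7238976 to 7241039, + strand) had a log2 fold change of -0.53 ± 0.38 (SE), which came from a single library. It was present at 104 and 112 RPKM in met-2;him-8 and at 101 and 211 RPKM in him-8, and without him-8 replicate 2 its log2 fold change was 0.10. The glutamyl gene ears-1 was at 154 and 606 CPM against 280 and 526 CPM. Its log2 fold change of -0.08 ± 0.69 (SE) therefore carries an error that covers a change in either direction. For cars-1, at 252 and 319 CPM against 282 and 327 CPM, the log2 fold change was -0.09 ± 0.22 (SE).

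Only 2 members had a fold change above 0, and both are mitochondrial. The transcript of sars-2 was present at 136 and 141 CPM in met-2;him-8 and at 121 and 118 CPM in him-8, with a log2 fold change of 0.21 ± 0.20 (SE). For the asparaginyl gene nars-2 (Y66D12A.23, chromosome III, 11488031 to 11492685, - strand) the levels were 95.3 and 86.5 CPM against 76.3 and 84.0 CPM, with a log2 fold change of 0.18 ± 0.22 (SE). The next in order was the arginyl gene rars-2 (C29H12.1, chromosome II, 6125530 to 6127688, + strand), at 107 and 86.1 CPM against 104 and 98.7 CPM and with a log2 fold change of -0.07 ± 0.23 (SE). None of the 3 passed the test, and each error is about as large as the change or larger. The lowest mitochondrial fold changes were those of ears-2 (-0.50 ± 0.26, SE), aars-1 (-0.45 ± 0.34, SE) and lars-2 (-0.43 ± 0.27, SE).

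A ratio of genes within a library does not depend on how libraries are scaled. For 10 amino acids a cytosolic and a mitochondrial gene were both detected, which gave 11 pairs because the phenylalanyl enzyme has 2 cytosolic subunits. The cytosolic gene was the higher in all 4 libraries in 11 of 11 pairs, by 1.45-fold to 8.11-fold on the RPKM scale computed from the counts. In the authors' RPKM, fars-2 lay above fars-3 in both genotypes, and pars-2 lay above pars-1 in met-2;him-8. The ratio was lower in met-2;him-8 without overlap in 6 pairs (those of arginine, asparagine, aspartate, serine and valine, and fars-3 over fars-2), higher in 0, and overlapped in 5, with fars-2 serving in 2 pairs. Of all 3020336 ratios of a gene in the level range of the cytosolic members to a gene in that of the mitochondrial members, 22.1% were lower in this way and 14.9% higher. The mean ratio was lower in met-2;him-8 in 10 of the 11 pairs, with a median log2 change of -0.21. Over all members, the median RPKM of cytosolic genes divided by that of mitochondrial genes was 2.37 and 2.87 in met-2;him-8 and 3.12 and 3.59 in him-8. The summed reads gave ratios of 5.76 and 6.46 against 6.93 and 7.88. Both ratios were lower in met-2;him-8 without overlap, and the exact permutation test cannot give a p below 0.333 here.

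**Figure D4:**
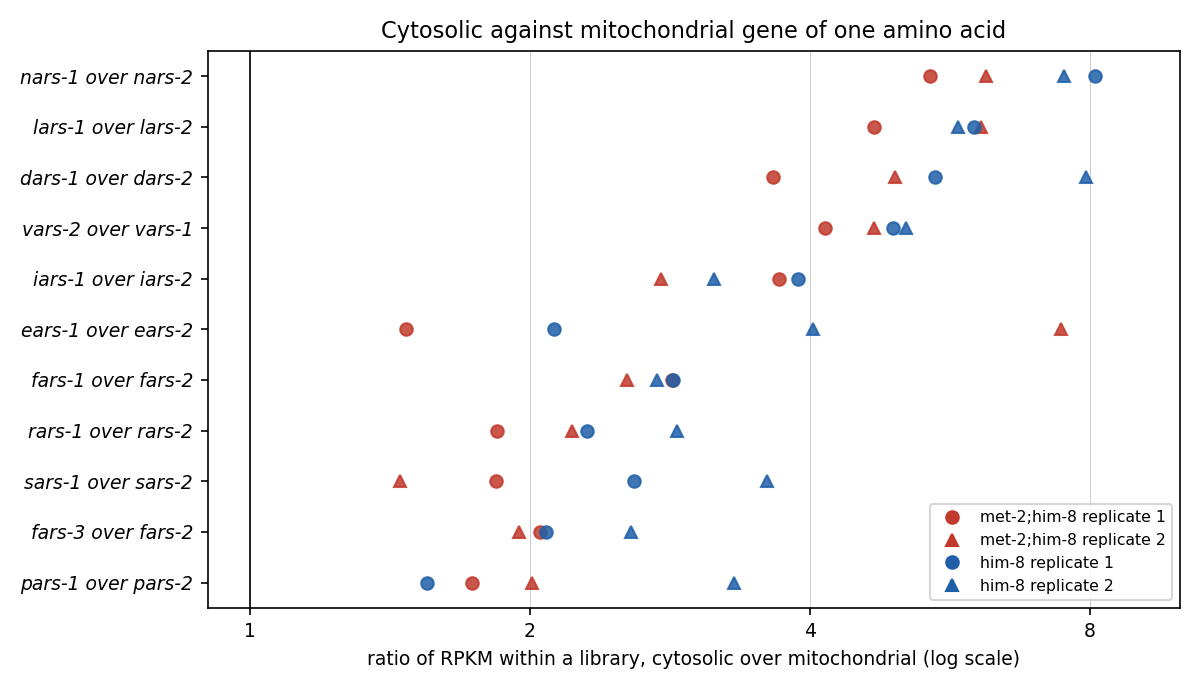
Ratio of the RPKM of the cytosolic gene to that of the mitochondrial gene of the same amino acid in each of the 4 libraries, on a log scale, for 11 pairs ordered by mean ratio. Red marks met-2;him-8 and blue marks him-8, all ratios lie above 1, and in 6 pairs both red points lie to the left of both blue points.

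The serine pair differed most between genotypes. The ratio of sars-1 to sars-2 was 1.84 and 1.45 in met-2;him-8 and 2.59 and 3.60 in him-8, a log2 change of -0.90, with sars-1 the lower and sars-2 the higher in met-2;him-8. For aspartate, dars-1 over dars-2 was 3.65 and 4.94 against 5.45 and 7.93, a log2 change of -0.63. The asparagine pair was the widest in level, with nars-1 over nars-2 at 5.39 and 6.19 against 8.11 and 7.499. The narrowest in mean level was proline, with pars-1 over pars-2 at 1.73 and 2.01 against 1.55 and 3.32, where the genotypes overlapped. The glutamate pair was the single pair with a higher mean ratio in met-2;him-8, at 1.47 and 7.45 against 2.12 and 4.04, which follows the spread of ears-1 between replicates. The cytosolic phenylalanyl enzyme is built from equal numbers of each subunit, and fars-1 over fars-3 was 1.39, 1.31, 1.37 and 1.07 in the 4 libraries.

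The enzyme classes, which differ in the fold of the catalytic domain, had medians close to each other. Among class I members 14 of 14 were below 0 with a median of -0.40, and among class II members 14 of 16 with a median of -0.38. Within the cytosolic group the medians were -0.47 for 8 class I and -0.46 for 10 class II genes. The 5 detected genes taken as the single gene of their amino acid had a median of -0.45, and the 13 other cytosolic genes, mars-1 and wars-1 included, one of -0.51. By position, members lie on all autosomes (9 on I, 5 on II, 6 on III, 8 on IV and 4 on V) and 0 lie on X, which holds 13.8% of the genes of the table. Of the 32, 15 (46.9%) lie in the middle of 3 equal parts of their chromosome, against 37.7% of autosomal genes. The genes tars-1 and fars-2 each overlap a gene on the opposite strand, kel-1 and Y116F11B.14, and the library kit does not mark strand. The overlapping genes had at most 119 and 29.0 reads in any library, against at least 7551 for tars-1 and 1998 for fars-2.

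Synthetase genes listed under sequence names were read alongside. Y105E8A.19, the cytosolic tyrosyl gene, was present at 243 and 166 CPM in met-2;him-8 and at 275 and 306 CPM in him-8, with a log2 fold change of -0.51 ± 0.26 (SE). Its neighbour Y105E8A.20, annotated in RefSeq as mars-2, the mitochondrial methionyl gene, was at 76.7 and 44.6 CPM against 81.4 and 78.4 CPM, with a log2 fold change of -0.40 ± 0.33 (SE). Neither passed the test, and in both the genotypes did not overlap.

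In the lists of other genes of translation both directions were seen. Of these genes 0 were called by edgeR, and at an unadjusted p below 0.05 there was 1, tufm-1. Of the 5 detected genes of cytosolic elongation, which deliver loaded tRNAs to the ribosome and move it along the mRNA, 1 was below 0 and 4 above, with a median of 0.07. The exception was eef-1G, a subunit of the exchange factor complex, at 3672 and 3784 CPM against 4773 and 5133 CPM and with a log2 fold change of -0.41 ± 0.17 (SE). The elongation factor gene eef-2, the most abundant of the list, was at 12880 and 13020 CPM against 12660 and 12090 CPM. Of the 4 matched mitochondrial translation factors 2 were below 0 and 2 above, with a median of -0.10. The mitochondrial elongation factor gene tufm-1 was at 421 and 378 CPM against 545 and 646 CPM, with a log2 fold change of -0.58 ± 0.20 (SE). Among 13 genes of tRNA processing and modification 8 were below 0 and 5 above, with a median of -0.08.

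Cells sense uncharged tRNA through the kinase GCN-2 and its partner GCN-1, which slow initiation and raise translation of the transcription factor ATF-4. Of the 6 genes listed for this response and for the unfolded protein response, 2 were below 0 and 4 above, with a median of 0.18, and 0 passed the test. The transcript of gcn-2 was present at 55.0 and 85.9 CPM against 66.8 and 90.1 CPM. That of gcn-1 was at 386 and 763 CPM against 446 and 320 CPM, and that of atf-4 (listed as atf-5) at 4.97 and 2.64 CPM against 3.80 and 2.70 CPM. In all 3 the genotypes overlapped.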

How the data were processed

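Gonad mRNA was sequenced by the authors from 2 met-2;him-8 and 2 him-8 preparations with the Illumina TruSeq RNA kit v2. The labels gave genotype and replicate number. Per the labels and the study's methods, reads were aligned with STAR and compared with Cuffdiff 2.2.1. Per gene, the authors deposited an estimated count for each library, not scaled to depth, and the tool behind the count table is not given in the sources used here. They also deposited RPKM values, 1 per genotype from both replicates, with coordinates, and with their own fold changes, p-values and q-values, which were not used. The files name no genome build. Gene starts count from 0 in the table (2132 genes matched their annotated length that way and 13 the other) and are printed counting from 1.

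Counts were rounded (53 to 66 genes per library were not whole) and tested over 10875 genes by the quasi-likelihood functions of edgeR 4.0.16 (R 4.3.3), after filterByExpr at its defaults and TMM scaling. Adjustment was by Benjamini-Hochberg, and the threshold was 0.05. The design had assumed whole counts. Standard errors are the log2 fold change divided by the square root of F. CPM were TMM-scaled, and RPKM were CPM per kilobase of merged exon in the WBcel235 annotation, used for lengths only. Medians of levels in log2 used a pseudocount of 0.5 RPKM. The main edgeR fit alone was run on simulated data, with log2 changes larger than those of any member. That run does not show how changes of the members' size are called. Totals ranged from 14255714 to 49848077 reads, so that 3 reads, taken as the smallest measurable count, correspond to 0.210 to 0.0602 CPM, which covers counting error only.

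The members and lists were chosen with earlier results of these data known. Compartments follow annotation, which differs from the number in the symbol for 6 of 32 members, and yars-1 was placed after the files were read, from its current name and length. Genes given with values in every library were the 3 highest and 3 lowest by fold change, those at an unadjusted p below 0.05, the 3 highest and lowest by level in each compartment, the widest and narrowest pair, and those at 0. Other pairs and genes were named after their values were seen. In the lists of other genes, gfm-2, mtif-2 and mtif-3 were not matched. Alternatives were other normalizations and filters, DESeq2 1.42.0, the replicate number as a block, each library left out, and the number in the symbol as the compartment. Scaling by library totals alone and the count of members below 0 were added after the data were seen.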

Additional observations from a re-analysis of the deposited data

How the results depend on the processing

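In all 8 other fits of the 4 libraries, 28 of 30 members were below 0 and 0 members were called. Leaving out each library in turn left 25 to 28 members below 0 and a cytosolic median of -0.60 to -0.31, with 0 to 6 members at an unadjusted p below 0.05. Without him-8 replicate 2 the cytosolic median minus the mitochondrial one was -0.12, against -0.25 with it. DESeq2 gave 2 members at an unadjusted p below 0.05. The number of genes called over the whole table was 0 as reported, 113 without an expression filter, 26 with DESeq2 and 144 with a replicate block, and the cause was not tested. The labels and methods do not say that the numbers pair the libraries, and the deviations of same-numbered libraries correlated at 0.36. With the block the smallest adjusted p of a member was 0.0760 (wars-1), against 0.0760 to 1 over all alternatives. When each library was left out, log2 fold changes changed sign for cars-1 (-0.28 to 0.077), dars-2 (-0.49 to 0.016), ears-1 (-1.40 to 0.60), rars-2 (-0.23 to 0.07) and pars-1 (-0.98 to 0.10). Taking the number in the symbol as the compartment lowered the difference of median log2 RPKM between compartments to 1.08 in met-2;him-8 and 1.501 in him-8, from 1.37 and 1.73. Depth limits none of the 30 detected members, and with 2 libraries per genotype the spread between libraries sets the errors.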

Other observations

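The authors' RPKM, 1 value per genotype, put met-2;him-8 below him-8 for 28 of the 30 detected members. They differ from the counts in order for pars-2, at 214 in met-2;him-8 and 172 in him-8 by the authors' RPKM, and for sars-2, at 102 in both. The authors' values exceeded those computed from the counts by a median factor of 1.51 over members and genotypes (range 1.03 to 3.89), most of all for the mitochondrial genes fars-2 and pars-2. By these values fars-2, at 272 in met-2;him-8 and 357 in him-8, lay above fars-3, at 226 and 323. For pars-1 they were 138 in met-2;him-8, below pars-2, and 219 in him-8, above it. The higher level of the cytosolic gene in every pair thus holds for the counts and not for the authors' RPKM. The annotation gives fars-2 protein forms of 458 to 74 residues and pars-2 forms of 454 to 114 residues. The part of short forms in these values was not tested.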
